A study of Mus musculus with 12 samples.

Results

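The kainate response of the mouse hippocampus without the transcription factors CREB and CREM was read from 6 of the 12 arrays of the series, 3 of mutant mice given kainate and 3 of mutant mice given saline. The arrays were chosen by the genotype and treatment in their titles. Mutant kainate mice received 20 mg/kg kainate by intraperitoneal injection and mutant saline mice received saline, and both were killed 1 hour later. All were littermates of both sexes, 5 to 6 weeks old, kept singly and handled for 5 days, and each array read the pooled hippocampal RNA of 3 animals. The series names the mutation only as the loss of CREB and CREM. The alleles, the driver of any recombinase, the cells that lack the factors and the genotype of the controls are not stated in the labels. The 6 arrays of control mice, 3 after the same kainate dose and 3 after saline, serve as the reference. The labels call the arrays biological replicates, so an SD below describes pools of animals and not single animals.

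Kainate opens a class of glutamate receptors, and a systemic dose drives hippocampal neurons into seizure-like firing. Calcium entry and kinase cascades then switch on immediate early genes within the first hour, by modifying transcription factors that are already present. CREB and CREM are such factors and bind the cAMP response element, whereas other routes run through serum response factor with ternary complex factors and through AP-1. The comparison asks which of the genes on this array were still higher after kainate when CREB and CREM were lost.

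The array is the third of its set and holds few of the classical activity genes. Of 71 listed activity-induced transcription factors 15 had a named probe set and 9 passed the filter on dim signal, and of 103 listed effector genes 27 had one and 16 passed. A probe set is a group of oligonucleotides that together give 1 reading of a transcript. The filter kept a probe set if 3 or more of the 12 arrays read log2 4 or higher, and 3541 of 11868 probe sets (29.8%) met it. All values below are on the log2 scale, and fold changes are given where they help.

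The genes that stood out were Kcnj2, Egr3, Egr4, Sik1, Apold1 and Gm13889. They had the largest higher differences in mutants among probe sets with a gene symbol and without overlap between kainate and saline arrays. Lack of overlap, and the same sign in replicate 1 and in replicates 2 and 3, were thus required for the choice of these genes. They lie apart in the genome (assembly GRCm38.p6): Kcnj2 at chr11:111066164-111076825, Egr3 at chr14:70077317-70082613, Egr4 at chr6:85511121-85513589, Sik1 at chr17:31844248-31855804, Apold1 at chr6:134982001-134986836 and Gm13889 at chr2:93955810-93957100. For 3 of the 6 the RefSeq promoter table held an entry, and the 250 bases before the annotated start are shown because the lost factors act through a defined DNA element. Capitals mark matches to the core of the CREB element (TGACG on either strand, here as CGTCA) and to the TATA motif TATAA.
Egr4, chr6:85513590-85513839, minus strand: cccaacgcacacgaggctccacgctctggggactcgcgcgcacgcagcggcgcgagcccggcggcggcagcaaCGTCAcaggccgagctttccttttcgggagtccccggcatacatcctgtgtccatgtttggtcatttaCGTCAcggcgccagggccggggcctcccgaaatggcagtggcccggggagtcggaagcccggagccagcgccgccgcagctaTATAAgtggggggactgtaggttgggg
Apold1, chr6:134981751-134982000, plus strand: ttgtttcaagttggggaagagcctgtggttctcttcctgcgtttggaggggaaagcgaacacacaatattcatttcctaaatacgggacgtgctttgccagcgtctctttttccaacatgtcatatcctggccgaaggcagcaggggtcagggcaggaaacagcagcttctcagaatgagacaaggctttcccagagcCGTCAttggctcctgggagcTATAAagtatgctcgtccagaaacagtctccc
Kcnj2, chr11:111065914-111066163, plus strand: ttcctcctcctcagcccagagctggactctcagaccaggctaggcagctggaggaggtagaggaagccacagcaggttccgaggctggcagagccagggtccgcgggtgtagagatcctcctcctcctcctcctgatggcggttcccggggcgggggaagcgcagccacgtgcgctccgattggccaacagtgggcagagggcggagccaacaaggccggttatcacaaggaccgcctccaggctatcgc
The Egr4 window held 2 cores, 177 and 109 bases before the start, and TATAA 27 bases before it. The Apold1 window held 1 core 52 bases before the start and TATAA 32 bases before it. The Kcnj2 window held no match to the 6 motifs searched on both strands. Of 27025 mouse promoter windows of the same length, 17.9% held the core and 16.7% held TATAA. The other motifs were the full element TGACGTCA (1.62% of windows), the serum response element (CArG box, 1.40%), the AP-1 motif TGANTCA (6.87%) and the EGR motif GCGTGGGCG (0.540%), and none of the 3 windows held any of them. The core lies within the full element, so these searches overlap. A match describes letters and shows no binding.

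The array of mutant kainate replicate 3 was weak. The SD of its log2 values was 1.52 (1.71 to 1.78 on the other arrays), and it correlated at 0.818 to 0.899 with the other mutant arrays, which correlated at 0.943 to 0.990 among themselves. Replicate 1 formed a group of its own, since its saline and kainate arrays correlated at 0.989 and each correlated at 0.943 to 0.962 with the replicate 2 and 3 arrays other than the weak one. Mutant saline replicates 2 and 3 correlated at 0.990. Mutant kainate replicate 2 correlated with them at 0.968 and 0.965, little above its 0.962 with mutant saline replicate 1. Replicate 1 against replicates 2 and 3 is called a batch below because most of these values part that way, and no label names one. For mutant kainate replicate 2 the parting is slight. Among the control arrays, that of control kainate replicate 3 read 12.95 for the astrocyte filament gene Gfap. The remaining control kainate arrays read 11.51 and 11.53, and the mutant saline arrays at least 12.23. The mutant kainate arrays read 12.82, 13.03 and 11.55 for Gfap, the last on the weak array, and the control saline arrays 10.75 to 11.59. The microglial gene Laptm5 read 9.64, 9.57 and 10.44 on the control kainate arrays and 10.12, 10.31 and 8.67 on the mutant kainate arrays. The reason was not tested, and all arrays were kept as labelled. Comparisons with the control response are also given without control kainate replicate 3.

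In the limma fit over all 12 arrays 1 probe set of 3541 (0.0282%) passed an adjusted p of 0.05 between kainate and saline in mutant mice, Kcnj2, and it was higher. None passed lower (0%). At an unadjusted p under 0.05 there were 55 higher probe sets (1.55%) and 245 lower ones (6.92%). All 3 kainate arrays lay above every saline array on 59 probe sets (1.67%) and below on 299 (8.44%). With so few arrays some probe sets separate without any response, and more do so when an array is left out. The counts without overlap are therefore not counts of induced genes. With each array centred on its median, the split was 129 higher and 139 lower at an unadjusted p under 0.05, and 149 above and 121 below without overlap. Quantile normalization gave 171 higher and 136 lower at that p. Without the weak array the counts without overlap were 180 (5.08%) above and 1010 (28.5%) below, or 305 and 254 after centring, and 3 probe sets passed the test, all higher (0.0847%). These were Kcnj2, Apold1 and a probe set without a gene symbol. When the batch was also fitted as a block 4 passed (0.113%), these 3 and Egr3.

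A rule that asks for a difference of at least 1 in both batches gave few probe sets. In replicate 1, 21 probe sets (0.593%) were higher by at least 1 and 5 (0.141%) lower by at least 1. In replicates 2 and 3, 62 (1.75%) were higher and 350 (9.88%) lower by that much. Both batches together left 5 higher probe sets (0.141%), of Kcnj2, Egr3, Sik1, Apold1 and Gm13889, and 0 lower ones (0%). Only 5 probe sets were that much lower in replicate 1, so a count of 0 lower says little. The Gm13889 probe set is a dim one that met the filter only through kainate arrays, and the brighter probe set of that gene differed by only 0.94 in replicate 1. Between replicate 1 and replicate 2 alone, which leaves out the weak array, 9 probe sets were higher by at least 1 (0.254%) and 0 lower (0%). The 4 added were the probe set without a symbol, Ppp1r3g, Gramd3 and Serpinb3a, and the last 3 were chosen here after their values were seen.

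**Figure D1:**
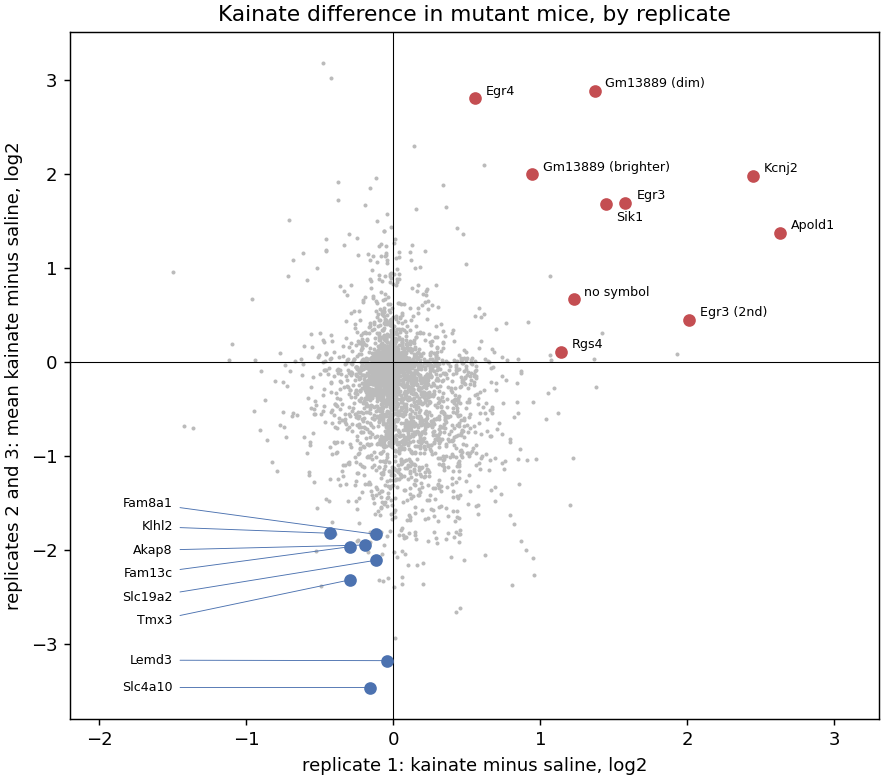
Each grey point is 1 of the 3541 probe sets, with the kainate minus saline difference of the replicate 1 mutant arrays on the x axis and the mean of replicates 2 and 3 on the y axis, both log2. Kcnj2, Egr3, Sik1, Apold1 and the dim probe set of Gm13889 lie above 1 on both axes, whereas the 8 largest lower differences among probe sets without overlap and with the same sign in both batches (blue) lie between -0.43 and -0.05 on the x axis, where that choice requires a value below 0.

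Kcnj2 encodes an inward-rectifier potassium channel that helps to set the resting potential. In mutant mice it read 6.65, 6.70 and 6.84 on the saline arrays and 9.09, 9.23 and 8.27 on the kainate arrays, in the order of the replicates. The groups did not overlap, and the lowest kainate value came from the weak array. Kcnj2 rose 4.39-fold (95% interval 3.02 to 6.40), a difference of 2.14 ± 0.24 (SE, n = 3 arrays per group, limma adjusted p = 0.027). The difference was 2.44 in replicate 1, 2.52 in replicate 2 and 1.44 in replicate 3. Without the weak array it was 2.43 ± 0.17 (limma adjusted p = 0.000965). The call did not hold everywhere. It was lost with no filter on dim signal (adjusted p = 0.0831), with only the 6 mutant arrays (adjusted p = 0.804), with replicates 2 and 3 alone (adjusted p = 0.0528), and without any 1 of 8 arrays, namely mutant saline 1, 2 or 3, mutant kainate 2, control kainate 1, 2 or 3, or control saline 3. In those 8 fits limma's adjusted p ran from 0.0807 to 0.222 while the difference stayed between 1.96 and 2.19.

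Egr3 and Egr4 are zinc finger transcription factors of the early growth response family, which relay activity to later target genes. The brighter probe set of Egr3 read 9.24, 8.28 and 8.57 after saline and 10.82, 10.20 and 10.05 after kainate. Every kainate array lay above every saline array, with the highest value of each group in replicate 1. The difference of 1.66 ± 0.26, or 3.15-fold (95% interval 2.10 to 4.75), did not pass (limma adjusted p = 0.104). It was 1.58 in replicate 1 and 1.70 in replicates 2 and 3. Without the weak array and with no block it was 1.81 and did not pass (limma adjusted p = 0.115). With the batch as a block it passed (limma adjusted p = 0.00423), also when the weak array was left out (1.73, limma adjusted p = 0.00315). A second Egr3 probe set read 5.35, 4.98 and 5.33 after saline and 7.36, 5.76 and 5.46 after kainate. It too showed no overlap, but its difference of 0.97 ± 0.62 came mostly from replicate 1 (2.01, against 0.45 in replicates 2 and 3).

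Egr4 showed the opposite pattern over the batches. It read 4.69, 4.69 and 4.19 after saline and 5.25, 7.55 and 6.94 after kainate, so that all kainate arrays lay above the saline arrays but replicate 1 only narrowly. The difference was 2.06 ± 0.48, or 4.16-fold (95% interval 1.97 to 8.79), with limma adjusted p = 0.579. It was 0.55 in replicate 1 and 2.81 in replicates 2 and 3. Without the weak array it was 1.88 and did not pass (limma adjusted p = 0.574). Without mutant kainate replicate 1, a fit that keeps the weak array, it passed (2.72, limma adjusted p = 0.00641). The saline values lie near the dim level of 4, so the fold is uncertain. The other Egr4 probe set read 0.58 to 0.65 over the 12 arrays, below the filter.

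Sik1 encodes a salt-inducible kinase that phosphorylates the CRTC co-activators of CREB and so keeps them out of the nucleus, and it is known as a CREB target. It read 4.39, 4.41 and 4.43 after saline and 5.83, 6.28 and 5.92 after kainate. The kainate values were tightly grouped and far from the saline values, also on the weak array. The difference was 1.60 ± 0.27, or 3.04-fold (95% interval 1.99 to 4.63), and did not pass (limma adjusted p = 0.139). It was 1.44 in replicate 1 and 1.68 in replicates 2 and 3, and without the weak array it was 1.65 (limma adjusted p = 0.262). The saline values lie near the dim level, so this fold is uncertain as well.

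Apold1, an early response gene best known from endothelial cells, read 4.40, 4.60 and 4.30 after saline and 7.03, 6.28 and 5.38 after kainate. The groups did not overlap, and the 3 kainate arrays were more spread than for Sik1, with the weak array lowest. The difference was 1.80 ± 0.37, or 3.48-fold (95% interval 1.96 to 6.17, limma adjusted p = 0.395), and here too the saline values lie near the dim level. It was 2.63 in replicate 1 and 1.38 in replicates 2 and 3. Without the weak array Apold1 passed (2.22 ± 0.28, limma adjusted p = 0.0413). The 5 tested genes of the endothelial and blood list had a median difference of -0.02, against -0.12 over all 2387 tested genes, and none of them passed.

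Gm13889 is a small protein-coding gene without a settled function, read by a pair of probe sets. The brighter one read 5.96, 5.78 and 5.41 after saline and 6.91, 7.19 and 8.01 after kainate. Here the weak array was the highest of the kainate arrays, and the groups did not overlap. The difference was 1.65 ± 0.33, or 3.14-fold (95% interval 1.88 to 5.22, limma adjusted p = 0.371), with 0.94 in replicate 1, 1.41 in replicate 2 and 2.60 in replicate 3. Without the weak array it was 1.33 and did not pass (limma adjusted p = 0.494). The other probe set read 2.36, 1.76 and 1.99 after saline and 3.73, 4.72 and 4.81 after kainate. Its saline values are below the dim level and it met the filter only through kainate arrays, so no fold or test is given.

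**Figure D2:**
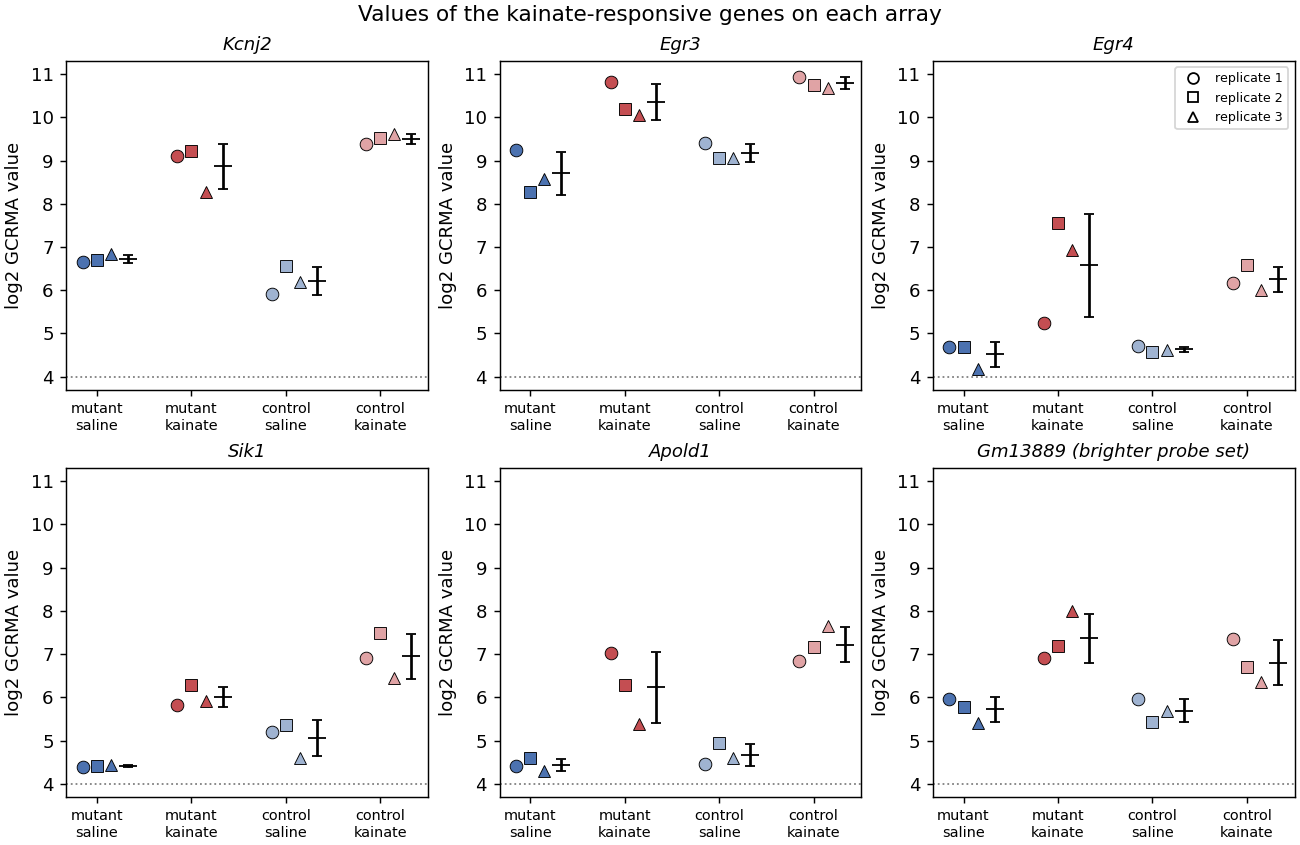
The log2 GCRMA value of 6 genes is shown on each of the 12 arrays, with a symbol for each replicate, the group mean and SD (n = 3) beside the points, and a dotted line at the dim level of 4. In mutants every kainate point lies above every saline point for all 6 genes, with Egr4 replicate 1 at 5.25 the nearest to the saline arrays. The choice of these genes required such a separation (for Gm13889 on its dim probe set), so the separation is no evidence of its own.

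The probe set without a symbol read 8.80, 8.71 and 8.71 after saline and 10.03, 10.31 and 8.45 after kainate. Replicates 1 and 2 were clearly above the saline arrays and the weak array was below them. Its difference was 0.85 ± 0.39 with all arrays (limma adjusted p = 0.579) and 1.43 ± 0.11 without the weak one (limma adjusted p = 0.00177). Rgs4, which speeds up the GTPase of G proteins and so shortens receptor signals, read 8.74, 9.14 and 9.36 after saline and 9.88, 9.63 and 9.10 after kainate. The groups overlapped through the weak array. The difference was 0.46 ± 0.21, with 1.14 in replicate 1, 0.49 in replicate 2 and -0.26 in replicate 3, and without the weak array it was 0.67. Ppp1r3g, a subunit that directs protein phosphatase 1 to glycogen, differed by 1.07 and 2.09 in replicates 1 and 2 and by -2.05 in replicate 3. Gramd3 differed by 1.38, 1.41 and -1.93, and Serpinb3a, a protease inhibitor gene, by 1.06, 1.76 and 0.08, in the same order. None of these 3 passed with all arrays or without the weak one.

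Beyond these genes the activity lists gave no call. Of the 9 tested transcription factor genes 0 passed, 4 had a positive and 5 a negative difference, and the median was -0.03 (0.05 in replicate 1 and 0.15 without the weak array). Jun, a subunit of AP-1, differed by 0.05 on a probe set that read 4.17 to 4.27 over the 6 arrays, near the dim level. Elk1, a ternary complex factor that partners serum response factor, had a difference of -1.12, but of -0.09 in replicate 1. Of the 16 effector genes 1 passed, Kcnj2, and 8 had a positive and 8 a negative difference, with a median of -0.19 (0.21 in replicate 1 and 0.34 without the weak array). Over all tested genes the median was -0.12, -0.01 in replicate 1 and -0.04 without the weak array, so the effector median lay below the overall one with the weak array and above it without.

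Other effector genes gave small or negative differences and none passed. Penk, the opioid peptide precursor, differed by 0.41 and Syt4, a synaptotagmin of dense-core vesicles, by 0.23, both with overlapping groups. Kcna1, a delayed-rectifier potassium channel, gave -0.67, the orphan receptor gene Gpr22 -0.82, the translation regulator Cpeb4 -0.46 and Cgref1, a secreted calcium-binding protein gene, -0.41. In replicate 1 these 4 differed by only -0.20, -0.07, -0.03 and -0.07. The 8 tested genes of MAP kinase signalling, the cascade that reaches Elk1 and the CREB kinases, had a median of 0.00 with 4 positive and 4 negative, and none passed. Among them Dusp3, a phosphatase, gave 0.34 (-0.08 in replicate 1) and Peak1, a pseudokinase, -0.53 (-0.35 in replicate 1).

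The CREB family itself did not pass in either direction. Of its 6 tested genes 3 were positive and 3 negative, the largest being Sik1. Creb1 read 4.94, 5.11 and 4.98 after saline and 4.83, 4.85 and 5.01 after kainate, a difference of -0.11 ± 0.08. Crem read 4.63, 4.83 and 4.65, then 4.51, 4.55 and 4.65, a difference of -0.13 ± 0.08. Both overlapped between the groups and both lie near the dim level. No source used here says which part of either gene is missing or whether the probes lie in it, so these values check nothing about the genotype. The co-activator genes Crtc1 and Crtc3 differed by 0.38 and -0.35, with -0.11 and 0.02 in replicate 1.

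**Figure D3:**
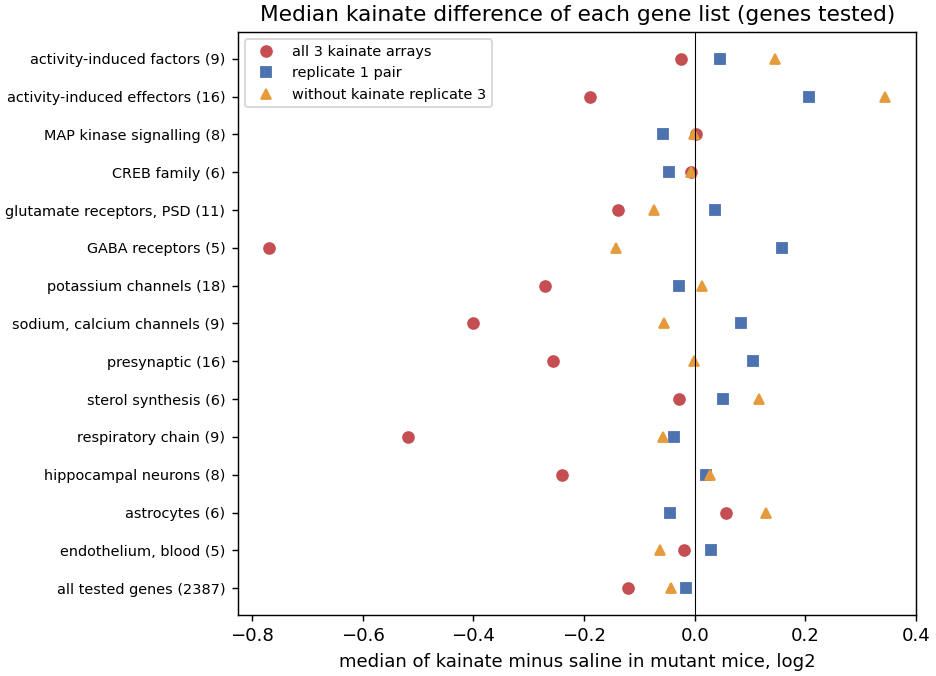
For each gene list with at least 5 tested genes (number in brackets) the median kainate minus saline difference in mutant mice is drawn on the log2 scale, for all arrays, for the replicate 1 pair and without kainate replicate 3. With all arrays most lists lie left of 0, down to -0.77 for the GABA receptor genes, whereas in replicate 1 their median was 0.16. Centring each array on its median moves the median of all genes from -0.12 to 0.00.

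Beyond the genes above, the largest non-overlapping higher differences came mainly from replicates 2 and 3 and none passed. 1700071K01Rik, named only by a clone, read 5.92, 5.59 and 6.03 after saline and 6.53, 7.64 and 8.16 after kainate, a difference of 1.60 ± 0.41 with 0.61 in replicate 1. Cdkl3, a kinase gene of the cyclin-dependent kinase-like family, differed by 1.10 (0.43 in replicate 1), but its second probe set gave -0.05. Gm10840, 1700008K24Rik, 1700113H08Rik and Syn1, which encodes a synaptic vesicle phosphoprotein, differed by 0.75, 0.72, 0.64 and 0.60. In replicate 1 these 4 differed by 0.02, 0.15, 0.04 and 0.16. Of the 12 largest higher probe sets with a symbol, taking 1 per gene without overlap and with the same sign in both batches, 9 (75%) had a suffixed identifier. A suffix is the maker's mark for probe sets chosen under relaxed rules or shared by several transcripts. It stood on 46.9% of all tested probe sets, 57.6% of the 59 above and 64.9% of the 299 below without overlap. Among the 9 were those of Egr4, Sik1 and Gm13889, and the brighter Gm13889 probe set is suffixed too.

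A measure of RNA quality differed by replicate too. The actin control probe sets gave a 3' minus 5' difference, which grows as RNA is degraded, of 2.00, 1.83 and 1.74 on the mutant saline arrays and 1.61, 2.30 and 2.44 on the mutant kainate arrays. In controls it was 1.92, 1.82 and 1.74 after saline and 1.77, 2.27 and 2.20 after kainate. It was thus higher after kainate in replicates 2 and 3 and lower in replicate 1, in both genotypes. The GAPDH control probe sets gave -0.08, 0.01 and 0.06 after saline and -0.08, 0.32 and 0.23 after kainate in mutants, thus higher after kainate in replicates 2 and 3 but not lower in replicate 1. The part of either measure in the differences seen only in replicates 2 and 3 was not tested.

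No probe set passed lower with all arrays, and the largest negative differences without overlap were small in replicate 1. Slc4a10, a sodium-coupled bicarbonate transporter that regulates neuronal pH, read 6.34, 6.95 and 7.12 after saline and 6.18, 4.15 and 3.01 after kainate. The groups did not overlap, but the replicate 1 kainate value was just below the lowest saline value. Its difference was -2.36 ± 0.72 (limma adjusted p = 0.579), with -0.16 in replicate 1, -2.81 in replicate 2 and -4.11 in replicate 3. Lemd3, an inner nuclear membrane protein, followed the same course with -0.05, -2.77 and -3.58. Without the weak array neither gene passed, Slc4a10 with -1.64 and Lemd3 with -1.59 (limma adjusted p = 0.574 for each). Without mutant kainate replicate 1 both passed lower, Slc4a10 with -3.23 (limma adjusted p = 0.0271) and Lemd3 with -3.03 (limma adjusted p = 0.0312), as they did with replicates 2 and 3 alone. Those fits keep the weak array. In control mice both genes showed this split too, with -0.15 and 0.24 in replicate 1 and -2.08 and -2.12 in replicates 2 and 3.

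Slc4a10 and Lemd3 led the 8 largest lower probe sets without overlap and with the same sign in both batches, and the other 6 were Tmx3, Slc19a2, Fam13c, Akap8, Klhl2 and Fam8a1, with differences between -1.64 and -1.26. In replicate 1 the 6 lay between -0.43 and -0.12. For Tmx3, a disulphide isomerase of the endoplasmic reticulum, the second probe set gave -0.06. Without the weak array the differences of these 6 were -0.84, -0.50, -0.97, -0.80, -0.59 and -0.85 in the same order. Among the postsynaptic genes Baiap2, an actin regulator of dendritic spines, differed alike in every replicate. It read 8.97, 9.17 and 9.24 after saline and 8.49, 8.79 and 8.58 after kainate, without overlap. Its difference of -0.51 ± 0.14 did not pass (limma adjusted p = 0.579), with -0.48 in replicate 1, -0.38 in replicate 2 and -0.66 in replicate 3.

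The weak array lowered bright probe sets as a class. Among probe sets with a mean level of 7 to 9, the median kainate minus saline difference was -1.19 for replicate 3, against 0.03 for replicate 1 and -0.03 for replicate 2. At 5 to 7 the 3 medians were -0.57, 0.01 and -0.08, and at 4 to 5 they were 0.05, -0.05 and -0.10. In replicate 3 89.8% of the probe sets at 7 to 9 were lower after kainate, and in replicate 1 45.1%. Among the 1634 probe sets at 4 to 5 the order was the other way, with 35.9% lower in replicate 3, 70.1% in replicate 1 and 80.8% in replicate 2. Over all 3541 probe sets 58.6% were lower in replicate 3, 58.4% in replicate 1 and 69.3% in replicate 2.

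**Figure D4:**
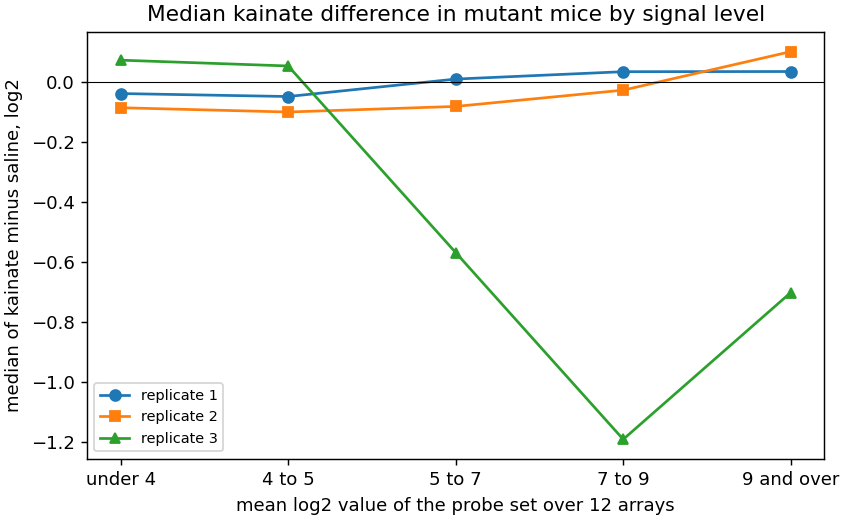
The median kainate minus saline difference in mutant mice is drawn for each replicate pair against the mean log2 level of the probe sets over the 12 arrays, in 5 level classes. The medians of replicates 1 and 2 lie between -0.10 and 0.10 at every level, both below 0 in the classes under 5. Replicate 3 drops to -1.19 at levels of 7 to 9.

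Synaptic, channel and metabolic lists held mostly negative differences, as did all genes tested, and none of their genes passed apart from Kcnj2. Over all 2387 tested genes 24.9% were positive, and 45.7% in replicate 1. All 5 GABA receptor genes had a negative difference with a median of -0.77, but 4 of the 5 were positive in replicate 1, where the median was 0.16. Gabra2 gave -0.39 on its brightest probe set, which stands in the list, and -1.59 on another (0.46 in replicate 1), Gabrd -0.88 (0.08) and Gabra4 -0.81 (-0.09). Of 18 potassium channel genes 17 were negative, with a median of -0.27 that became 0.01 without the weak array. Kcnj2 was the exception, whereas the M-current subunits Kcnq5 and Kcnq3 gave -1.04 (0.22 in replicate 1) and -0.84 (-0.34), the last with -0.15 on a brighter probe set. All 9 respiratory chain genes were negative with a median of -0.52, which was -0.06 without the weak array. Of these Ndufs1, a complex I subunit, gave -1.57 (-0.10 in replicate 1, and -0.52 on a second probe set) and Cox7a2, a cytochrome oxidase subunit, -0.73 (-0.14).

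Of 16 presynaptic genes 13 were negative, with a median of -0.26 that was 0.11 in replicate 1 and 0.00 without the weak array. Rab3c, a vesicle GTPase, gave -1.39 (0.16 in replicate 1). Syt11, a synaptotagmin that does not bind calcium, gave -1.22 ± 0.31 without overlap (-0.23 in replicate 1). Without the weak array Syt11 gave -0.88 and did not pass (limma adjusted p = 0.574). It passed lower without mutant kainate replicate 1 (-1.63, limma adjusted p = 0.00869) and with replicates 2 and 3 alone, whereas its second probe set gave -0.26 with all arrays. The 9 sodium and calcium channel genes had a median of -0.40 (0.08 in replicate 1), with the leak channel gene Nalcn at -1.03 (0.31), and -0.40 on its brighter probe set. The 6 sterol synthesis genes had a median of -0.03, and Mvd, a mevalonate pathway enzyme, gave 0.76 entirely from replicates 2 and 3 (1.16, against -0.05 in replicate 1).

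These directions depend in part on the scaling. Quantile normalization moved the median over all tested genes from -0.12 to -0.01 and median centring moved it to 0.00, and the share of positive genes became 48.1% and 50.6%. The GABA receptor median stayed at -0.53 and -0.64 with all 5 genes negative, and the respiratory chain median at -0.34 and -0.39 with 2 of 9 genes positive under each. The potassium channel median became -0.07 and -0.14, with 8 and 5 of 18 genes positive. Sodium and calcium channel, presynaptic, heat shock, glucocorticoid, oligodendrocyte, microglial and choroid plexus medians also stayed below 0. The medians of the activity transcription factor, CREB family, sterol synthesis, cytokine and endothelial lists turned positive under both scalings. Those of the effector, glutamate receptor and hippocampal neuron lists did so only under quantile normalization (0.06, 0.02 and 0.03).

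Markers of the hippocampus and of other cell types showed no called change. Of 36 listed hippocampal neuron genes 11 had a probe set and 8 passed the filter, among them Slc17a7, the vesicular glutamate transporter of excitatory neurons, which read 6.99 to 8.40 on the mutant arrays. The 8 tested hippocampal neuron genes had a median of -0.24, the 6 astrocyte genes 0.06, the 4 oligodendrocyte genes -0.21, the 4 microglial genes -0.38, the 5 endothelial and blood genes -0.02 and the 4 choroid plexus and ependymal genes -0.62. In replicate 1 these 6 medians lay between -0.07 and 0.03. Of the 6 astrocyte genes 3 had a positive and 3 a negative difference. Apoe, the lipid carrier of astrocytes, and Pla2g7, a phospholipase, differed by 0.42 and 0.27, with -0.07 and -0.02 in replicate 1. The saline values of both lie near the dim level, so these differences are uncertain. The much brighter Gfap differed by -0.099. Cx3cr1, the microglial fractalkine receptor, gave -0.51, Ugt8a, a myelin lipid enzyme, -0.97, and the choroid plexus genes Sostdc1 and Kcne2 -1.18 and -0.94. In replicate 1 Cx3cr1 gave -0.54, Ugt8a -0.16, Sostdc1 0.15 and Kcne2 -0.11. Without the weak array Ugt8a gave -0.24 and Kcne2 -0.40. Sostdc1 read 3.14 to 6.35 within the saline group alone. In bulk tissue, fewer cells of a type and less RNA per cell cannot be told apart.

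In control mice 1 probe set passed higher, Kcnj2 (0.0282%). With the replicate number as a block 3 did (0.0847%), Kcnj2, Egr3 (limma adjusted p = 0.0113, 0.102 without the block) and Sik1 (limma adjusted p = 0.0212, 0.0678 without the block). In mutants the same block gave a limma adjusted p = 0.0459 for Kcnj2, 0.0187 for Egr3 and 0.0680 for Sik1. Apold1 did not pass in controls (limma adjusted p = 0.0678, 0.210 with the block), nor did Egr4 or the brighter Gm13889 probe set. The difference between the genotypes was tested by the interaction of genotype and kainate. None of 3541 probe sets passed it (0%), and 31 (0.875%) had an unadjusted p under 0.05. In Kcnj2 the response was 3.28 in controls, or 9.71-fold, against 2.14 in mutants, a difference of -1.14 ± 0.34 (95% interval -1.91 to -0.38, limma adjusted p = 0.973). The interval stayed below 0 without the array labelled control kainate replicate 3 (-1.96 to -0.22) and without the weak mutant array (-1.36 to -0.34). After saline Kcnj2 read 5.91, 6.56 and 6.19 in controls, all below the 3 mutant saline arrays, and after kainate 9.37, 9.52 and 9.60, all above the 3 mutant kainate arrays.

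For the other 5 genes that stood out the interval of the difference held 0. Egr3 responded by 1.61 in controls and 1.66 in mutants, a difference of 0.04 (95% interval -0.79 to 0.88). Sik1 responded by 1.89 and 1.60, a difference of -0.29 (-1.15 to 0.57), and Apold1 by 2.55 and 1.80, a difference of -0.75 (-1.92 to 0.42). Apold1 gave -0.33 (-1.19 to 0.53) without the weak array. Egr4 responded by 1.62 and 2.06, a difference of 0.44 (-1.09 to 1.96), and the brighter Gm13889 probe set by 1.11 and 1.65, a difference of 0.54 (-0.50 to 1.58). Without control kainate replicate 3 the differences were -0.01 for Egr3, -0.54 for Sik1, -0.54 for Apold1, 0.32 for Egr4 and 0.31 for Gm13889, and each interval again held 0. With replicates 2 and 3 alone it did not for Egr4 (1.11, interval 0.045 to 2.17) and Apold1 (-1.26, interval -2.48 to -0.039), with a limma adjusted p = 0.820 for each. The intervals from all arrays are wide, and for Egr4 they allow a response smaller or larger by more than 1 log2 unit. Rgs4 responded by 1.16 and 0.46, a difference of -0.70 (-1.38 to -0.02, limma adjusted p = 0.973), and its interval reached 0.08 without the weak array and 0.12 without control kainate replicate 3. With the replicate block the Kcnj2 interval stayed below 0 (-1.92 to -0.37), those of the 5 genes still held 0, and that of Rgs4 reached 0.08.

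**Figure D5:**
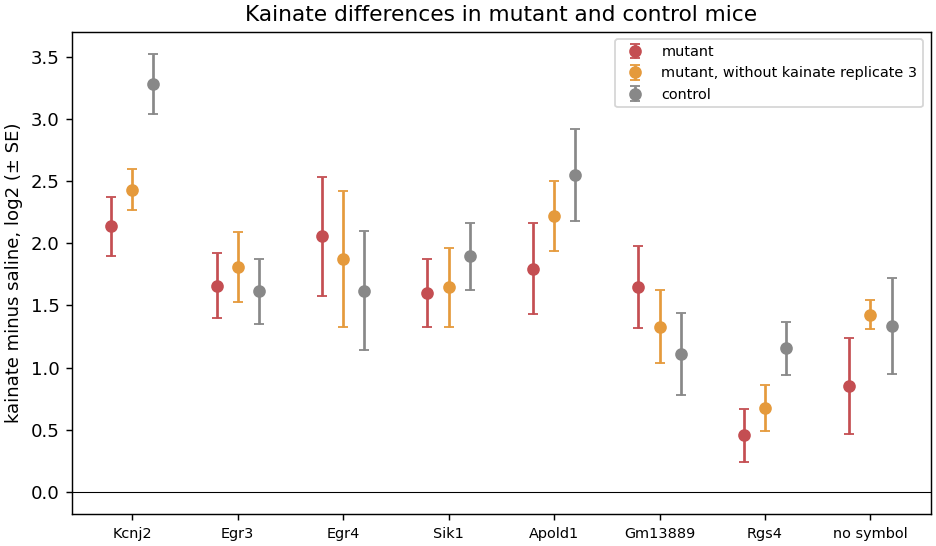
The kainate minus saline difference (log2, with SE from the limma fit) of 8 probe sets is shown for mutants with all 3 kainate arrays, for mutants without kainate replicate 3 and for controls. Kcnj2 shows the widest gap, with 2.14 in mutants and 3.28 in controls, and Egr3 nearly none, with 1.66 and 1.61.

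Counted by overlap, 213 probe sets (6.02%) had all control kainate arrays above all control saline arrays, against 59 (1.67%) in mutants, and 21 (0.593%) did so in both genotypes. These 21 were 9.86% of the control set and 35.6% of the mutant set. Without the weak array the mutant count was 180 (5.08%), but 2 kainate arrays separate from the saline arrays more easily than 3. A higher count with an array left out is thus no gain in induced genes. When replicate 3 was left out of both kainate groups, 339 (9.57%) lay above in controls, 180 in mutants and 71 (2.01%) in both, which is 20.9% and 39.4% of these sets. Without control kainate replicate 3 alone, 23 were shared by the 339 and the 59. After centring each array on its median the counts with all arrays were 381 in controls, 149 in mutants and 38 in both.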

How the data were processed

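Hippocampal RNA was read on 12 arrays of the Affymetrix murine U74 set (chip C), 3 for each of 4 groups. The authors deposited GCRMA values on the log2 scale, made in R 2.4.1 per the submitters' processing notes, and these were used as deposited. Scanner files were not used here, and 3 arrays per group limit the precision. The 66 array control probe sets were left out. Over the array 7717 probe sets had 1 gene symbol (7677 updated by gene identifier to RefSeq, GRCm38.p6), 150 several and 4001 none. Those passing the filter with 1 symbol (2713) stand for 2387 genes.

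The model was fitted with limma 3.58.1 in R 4.3.3 (lmFit, contrasts.fit, eBayes), with a mean per group, no block, 8 residual degrees of freedom and Benjamini-Hochberg adjustment over 3541 probe sets at 0.05. The script was tested on simulated data. Lists use the brightest probe set of each gene. Named genes are Creb1, Crem, genes past the threshold (also in the blocked fit that leaves out the weak array), up to 12 of the largest higher and 8 of the largest lower non-overlapping probe sets with the same sign in both batches, members of the activity, MAP kinase and CREB lists, and up to 3 of each other list. The members and the gene lists were chosen with earlier results of these data known. The main fit did not treat the mutant arrays as paired by replicate number. Differences given by replicate subtract the saline from the kainate array of the same number. They describe values and are not responses of matched animals. Deviations of same-numbered mutant arrays from their group means correlated at 0.479, 0.0448 and -0.0779. The kainate mean holds the weak array, so the low values cannot show that pairing is absent. For the control arrays these correlations were 0.627, 0.383 and 0.458, so values with the replicate block stand beside the control results. Alternatives were the filter, the normalization, the arrays fitted, the blocks, array weights, eBayes settings and each array left out.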

Additional observations from a re-analysis of the deposited data

How the results depend on the processing

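In mutant mice the 1 probe set past the threshold became 0 with no filter and with only the 6 mutant arrays, 2 with median centring, with the replicate block and with the batch as a block, 4 with quantile normalization again and with the batch as a block without mutant kainate replicate 3, 5 when control kainate replicate 3 was left out too, and 70 (16 higher, 54 lower) with replicates 2 and 3 alone. Array weights gave 1007, but the weights ran from 0.0567 to 28.8 and did not converge. Leaving out 1 array gave 0 to 67, the 67 (21 higher, 46 lower) without mutant kainate replicate 1, and 3 without the weak array. For controls the 1 became 2 with quantile normalization again and with the batch as a block, 3 with the stricter filter and with the replicate block, 5 with median centring and with the batch as a block without mutant kainate replicate 3, 6 with only the 6 control arrays, 7 when control kainate replicate 3 was left out too, 14 with replicates 2 and 3, 113 with array weights and 1 to 4 over single arrays left out. The interaction count of 0 became 2 with array weights and stayed 0 over single arrays left out. The overlap counts with other arrays or scaling were alternatives chosen after seeing the data. The counts without overlap went from 59 to 180 above and from 299 to 1010 below without mutant kainate replicate 3. The causes were not tested. Over the 68 named probe sets, 1576 of 1689 refits kept direction and call, 83 newly passed, 11 no longer passed and 19 reversed. The reversed values were Gramd3 -0.26 with replicates 2 and 3, Slc17a7 0.0018 with the batch as a block without mutant kainate replicate 3, Cx3cr1 0.19 with array weights, Creb1 0.054 and the second Tmx3 probe set 0.0068 and the brighter Kcnq3 probe set 0.0062 with quantile normalization, Creb1 0.013, the second Tmx3 probe set 0.062 and the second Cdkl3 probe set 0.076 with median centring, and, over single arrays left out, ranges of -0.020 to 0.47 for Syt4, -1.78 to 0.15 for Gabrd, -0.36 to 1.67 for Ppp1r3g, -0.33 to 1.22 for Gramd3, -0.68 to 0.029 for Slc17a7, -0.31 to 0.046 for the brighter Kcnq3 probe set and -0.50 to 0.0022 for the second Syt11 probe set.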
